A study of Mus musculus with 2 samples.

Results

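Fas ligand and TRAIL are membrane proteins of the TNF family with which activated T cells can kill other cells and each other. Their receptors carry a death domain on the inner side of the membrane, which recruits the adaptor FADD and through it caspase-8, and caspase-8 then cuts the executioner caspases. The protein c-FLIP, encoded by Cflar, resembles caspase-8 and can take its place at the receptor, and where caspase-8 is held back the kinases RIPK1 and RIPK3 can instead drive necroptosis, a lytic form of death. The 9 genes described here were chosen by symbol and hold both ligands (Fasl and Tnfsf10, the TRAIL gene), their death receptors (Fas and Tnfrsf10b) and 5 genes that act inside the cell (Fadd, Casp8, Cflar, Ripk1 and Ripk3). All 9 were found among the 24421 gene symbols of the table.

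The sequencing compared Th1 cells of 2 genotypes on the C57BL/6J background, Chi3l1+/+ (WT) and Chi3l1-/- (KO, lacking chitinase 3-like 1 in all cells of the mouse), with 1 library each. Per the study's methods, naïve CD4 T cells from mice aged 6 to 8 weeks were activated on anti-CD3 and anti-CD28 antibodies and skewed with IL-12, IL-2 and an anti-IL-4 antibody for 3 or 5 days. Which of these times the libraries come from, and whether mice were pooled, was not given in the sources used here. With n = 1 per genotype no difference has a replicate check, so no test was made, and all intervals below cover read sampling only.

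Rebuilt reads summed to 70565831 in the library labelled WT Th1 and 62900738 in the library labelled Chi3l1 KO Th1. The targeted gene, listed as Chil1, had 1 read in the library labelled WT and 103 in the library labelled KO, which goes against the labels, and a value per gene cannot show whether these reads lie outside the disrupted part. Every direction below therefore follows the labels as given, and the libraries are named by their labels. Of the T cell and Th1 markers, 10 of 11 were listed and all were above 0 in both libraries, with Cd3e at 32449 and 30792 reads and Cd4 at 21040 and 16262 reads in the libraries labelled WT and KO. As deposited, 2 of these 10 were higher in the library labelled KO and 8 were lower. Of the genes of Th1 function among them, Ifng, the gene of IFNγ, had 3479 and 8720 reads (log2 fold change 1.32). The receptor gene Il12rb2 had 15791 and 21533 (0.445). The transcription factor gene Tbx21 had 16657 and 13885 (-0.265), and the chemokine receptor gene Cxcr3 had 273 and 116 (-1.23). Across the genes that reached a deposited log2 value of 8 in both libraries, called well expressed here, the difference between libraries was lower where the transcript was richer in G and C (rank correlation of -0.53 over 8579 genes, which share the same 2 libraries). For the members, each difference is therefore also given with this trend removed. With it removed the difference of Tbx21 was 0.12, so its sign turned. Of the 10 T cell and Th1 markers, 4 were then higher in the library labelled KO, and 6 when scaled to total reads instead. Of all genes with at least 30 reads in a library, 49.1% were higher as deposited.

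The stretches just upstream of both ligand genes are shown because the ligands are the members whose difference between libraries is compared first. They are from RefSeq (GRCm38.p6), 5′ to 3′ on the gene's strand, and end 1 base before the first annotated start. Capitals mark GGAAA, the core bound by NFAT factors, which T cell receptor signals activate, on either strand. Tnfsf10 lies on chromosome 3 (27317028 to 27342427, plus strand), and the 201 bases shown are chr3:27316827-27317027.
Tnfsf10 upstream: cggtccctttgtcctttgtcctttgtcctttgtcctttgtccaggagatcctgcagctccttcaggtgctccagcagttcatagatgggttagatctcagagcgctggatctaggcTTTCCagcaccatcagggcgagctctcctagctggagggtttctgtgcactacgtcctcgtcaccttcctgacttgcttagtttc
Fasl lies on chromosome 1 (161780689 to 161788495, minus strand), and the 250 bases shown are chr1:161788496-161788745.
Fasl upstream: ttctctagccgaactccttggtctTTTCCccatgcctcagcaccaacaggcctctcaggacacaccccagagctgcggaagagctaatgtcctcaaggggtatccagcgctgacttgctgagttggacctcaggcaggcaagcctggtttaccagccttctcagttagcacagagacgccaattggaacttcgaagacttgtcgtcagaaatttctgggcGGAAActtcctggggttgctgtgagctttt
The stretch of Tnfsf10 held 1 such core, ending 81 bases before the start, and that of Fasl held 2, at 222 and 26 bases. The core is common. It occurred on either strand in 61.3% of the 32851 windows of 250 bases before to 50 bases after a start, and in those of 7 of the 8 members that had a window (Tnfrsf10b had no entry). A match of letters does not show binding.

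Tnfsf10, which encodes TRAIL, was the only member at or past 2-fold. Its normalized count was 265 in the library labelled WT and 535 in the library labelled KO, from 273 and 552 reads. The level in the library labelled KO was 2.02-fold higher (log2 fold change 1.01, 95% exact binomial interval 0.80 to 1.23). Of all 24421 genes, 4.7% were higher by at least 2-fold in the library labelled KO, as were 0.853% of the 9376 genes that reached a log2 value of 8 in either library, which all 9 members did. The study had already picked out Tnfsf10 from these same data, so these shares are a description and not a test. No member was lower by 2-fold or by 1.5-fold. Of all genes, 5.81% were lower by at least 2-fold and 11.4% by at least 1.5-fold, and these shares were 1.24% and 7.4% of the genes that reached 8. With the GC trend removed, the difference of Tnfsf10 was 0.82 on the log2 scale, and under quantile normalization it was 0.97, neither of them past 2-fold.

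Fasl, which encodes Fas ligand, differed less. Its normalized count was 275 in the library labelled WT and 332 in the library labelled KO, from 284 and 343 reads. This is 1.20-fold higher in the library labelled KO (log2 fold change 0.27, interval 0.04 to 0.50), or 0.09 with the GC trend removed. Thus both ligands started from close read numbers in the library labelled WT, and TRAIL then differed more than Fas ligand. The log2 fold change of Tnfsf10 exceeded that of Fasl by 0.74 (exact conditional 95% interval 0.43 to 1.06), a difference that no common scaling factor changes. It was 0.73 with the GC trend removed, since the longest transcripts of Tnfsf10 and Fasl have a similar GC content of 42.8% and 44.1%.

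**Figure D1:**
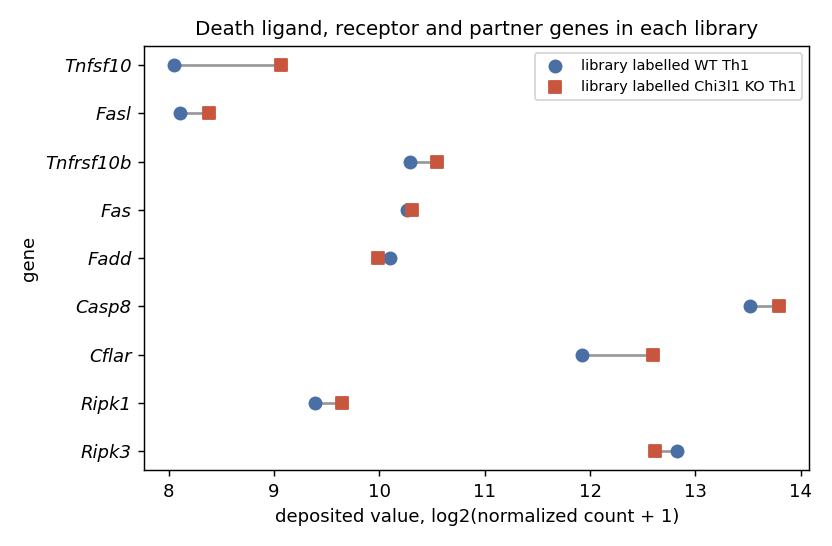
Deposited values of the 9 genes on the scale log2(normalized count + 1), with 1 point per library and a grey line joining the 2 libraries of a gene. Tnfsf10 and Cflar have the longest lines, with the library labelled KO higher, and Fadd and Ripk3 are the 2 genes with the library labelled KO lower as deposited (Fadd is at 0.05 when scaled to total reads).

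The receptors differed less than TRAIL. Tnfrsf10b (chromosome 14, 69767472 to 69784411), the death receptor of TRAIL in mouse, had a normalized count of 1252 in the library labelled WT and 1497 in the library labelled KO. It was 1.20-fold higher (log2 fold change 0.26, interval 0.15 to 0.37), and 0.21 on the log2 scale remained with the GC trend removed. Fas (chromosome 19, 34290666 to 34327772), the receptor of Fas ligand, had 1224 and 1265. The interval of its log2 fold change of 0.05, from -0.06 to 0.16, includes 0, and its sign turned with the GC trend removed (-0.14). Hence of the 4 genes for ligands and receptors, all were higher in the library labelled KO as deposited, and Fas was lower in that library once the trend was removed.

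Of the genes of the receptor complex, Cflar stood out. Cflar (chromosome 1, 58711508 to 58758884), the gene whose products compete with caspase-8, had a normalized count of 3871 in the library labelled WT and 6212 in the library labelled KO, a 1.60-fold higher level (log2 fold change 0.68, interval 0.62 to 0.74). The values are per gene, so the long and short forms of c-FLIP are not separated. Cflar and Tnfsf10 were the 2 members of 9 at or past 1.5-fold, where 9.6% of all genes, and 5.12% of those that reached 8 in either library, were as much higher. With the GC trend removed Cflar was at 0.52, below 1.5-fold.

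Casp8 (chromosome 1, 58795374 to 58847503), the initiator caspase of this pathway, is the neighbour of Cflar, with 36.5 kb between them. It had the most reads of the 9 genes. Its normalized count was 11705 in the library labelled WT and 14203 in the library labelled KO (log2 fold change 0.28, interval 0.24 to 0.31). At this depth the interval of read sampling is narrow, yet the difference of 1.21-fold is smaller than the SD of 0.37 of the log2 fold change across the 8886 well expressed genes. Fadd (chromosome 7, 144577318 to 144582463), the adaptor that joins receptor and caspase, had 1095 and 1011 (log2 fold change -0.12, interval -0.24 to 0.01), and its sign turned when the libraries were scaled to their total reads (0.05), which lifts the median of all genes above 0 in both libraries by 0.15. Removing the GC trend put Fadd at -0.07. The gene overlaps an antisense RNA, and whether counting used the strand was not given in the sources used here.

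The kinases of necroptosis went opposite ways by small amounts. Ripk1 (chromosome 13, 34002363 to 34037147), which also serves in TNF receptor signalling, had a normalized count of 671 in the library labelled WT and 802 in the library labelled KO (log2 fold change 0.26, interval 0.11 to 0.40). Its first bases overlap those of Serpinb6a on the other strand. Ripk3 (chromosome 14, 55784995 to 55788865), the kinase that activates the pore-forming MLKL, had 7280 and 6272 (log2 fold change -0.21, interval -0.26 to -0.17). It was the lowest of the 9 differences as deposited. With the GC trend removed, Ripk1 was at 0.12 and Ripk3 at -0.08, and Fas, at -0.14, was then the lowest.

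**Figure D2:**
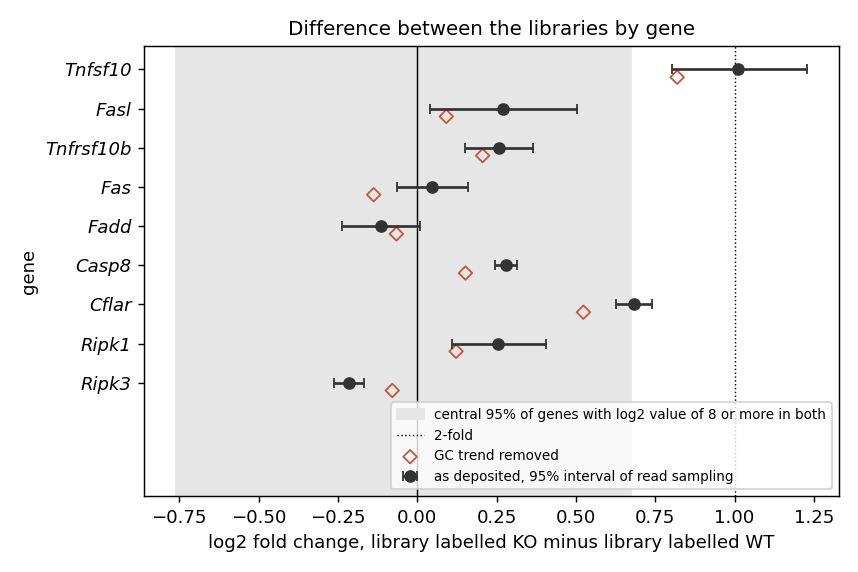
Log2 fold change of each gene, library labelled KO minus library labelled WT, with 95% exact binomial intervals of read sampling (black), the value with the GC trend removed (open diamonds) and, in grey, the central 95% of the 8886 genes that reached 8 in both libraries (-0.76 to 0.67). Tnfsf10 lies to the right of the grey range with either value, Cflar only as deposited, and the other 7 genes lie inside it. The grey range is of deposited values only, so the open diamonds have no matching range here.

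As deposited, 7 of the 9 genes were higher in the library labelled KO and 2 were lower, with a median log2 fold change of 0.26. With the GC trend removed 6 were higher and the median was 0.12. For comparison, the 12492 genes of the table with at least 30 reads in a library had a median of -0.0080, with 49.1% of them higher. Of the members, Fasl, Casp8 and Cflar, are on the chromosome of the targeted gene, at 27.6 Mb, 75.3 Mb and 75.4 Mb from Chil1. Tnfsf10 is on another chromosome.

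Levels of different genes were compared per length, as the normalized count per kilobase of the longest GENCODE transcript. In the library labelled WT the order from high to low was Casp8 (4528), Ripk3 (3707), Fas (753), Cflar (589), Tnfrsf10b (394), Fadd (281), Fasl (142), Ripk1 (104) and Tnfsf10 (53.0). In the library labelled KO it was Casp8 (5494), Ripk3 (3194), Cflar (945), Fas (778), Tnfrsf10b (471), Fadd (259), Fasl (171), Ripk1 (124) and Tnfsf10 (107). The initiator caspase and the necroptosis kinase RIPK3 thus stood well above both receptors, and both ligands were near the low end. Cflar and Fas changed places between the libraries. Neighbours in the order were separated beyond their 95% Poisson intervals, apart from Ripk1 and Tnfsf10 in the library labelled KO. Counted per kilobase of all exons of the gene, Fas was above Cflar in both libraries, Fadd was above Tnfrsf10b in the library labelled WT, and Tnfsf10 was above Ripk1 in the library labelled KO, so these places rest on the choice of transcript.

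**Figure D3:**
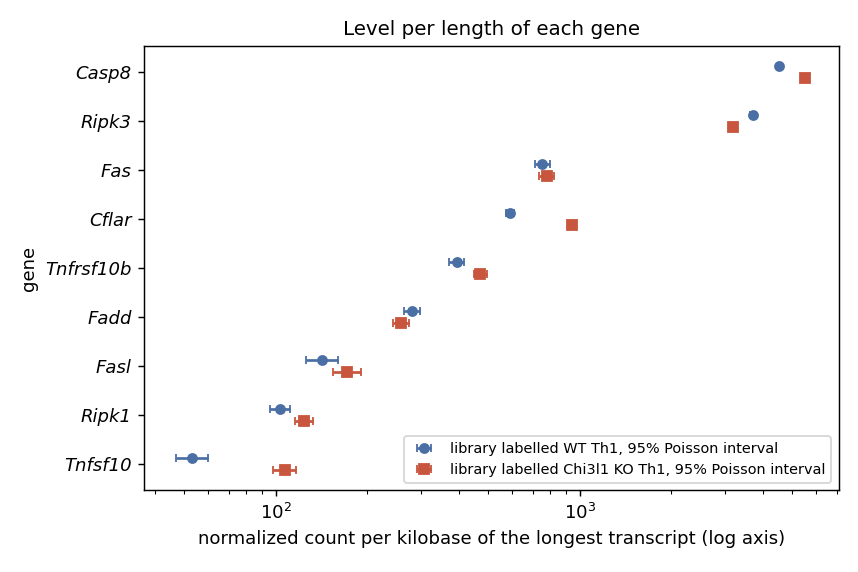
Normalized count per kilobase of the longest transcript for each gene on a log axis, with 95% Poisson intervals of the reads for the library labelled WT (circles) and the library labelled KO (squares). Casp8 and Ripk3 lie far to the right in both libraries, with 3194 as the lowest of their values, and Tnfsf10 is lowest in both, at 53.0 and 107.

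Ratios within a library show how the balance of partners differed. The ratio of the TRAIL gene to its receptor gene per kilobase was 0.135 in the library labelled WT (95% exact binomial interval 0.118 to 0.154) and 0.227 in the library labelled KO (0.206 to 0.251). It was thus 1.69-fold higher in the library labelled KO (exact conditional interval 1.43 to 1.99). The ratio of Fasl to Fas was 0.189 (0.166 to 0.215) and 0.220 (0.195 to 0.248). That difference of 1.17-fold had an interval from 0.975 to 1.40 and was not detectable at this depth. The ratio of Tnfsf10 to Fasl was 0.373 in the library labelled WT and 0.624 in the library labelled KO, so transcripts of TRAIL were fewer per length than those of Fas ligand in both. This order rests on division by length, here by the longest transcripts, of 4993 bases for Tnfsf10 and 1937 for Fasl. Per kilobase of all exons it was the same, with ratios of 0.354 in the library labelled WT and 0.592 in the library labelled KO. Without division by length, Tnfsf10 was the higher in the library labelled KO (535 and 332).

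Inside the cell, the ratio of Cflar, the inhibitor, to Casp8 was 0.130 in the library labelled WT (0.125 to 0.135) and 0.172 in the library labelled KO (0.167 to 0.177), which is 1.32-fold higher (1.26 to 1.39). The higher Casp8 was therefore accompanied by a larger difference in Cflar. Ripk3 exceeded Ripk1 by 35.7-fold (33.1 to 38.7) and 25.8-fold (24.0 to 27.7), and the log2 ratio was lower by 0.47 in the library labelled KO (interval of the difference -0.63 to -0.32). With the GC trend removed this last difference was -0.20, while those of TRAIL to its receptor (0.61) and of Cflar to Casp8 (0.37) stayed within their intervals. The change of a ratio between libraries does not depend on gene length or on scaling, whereas the ratio itself depends on the length used.

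**Figure D4:**
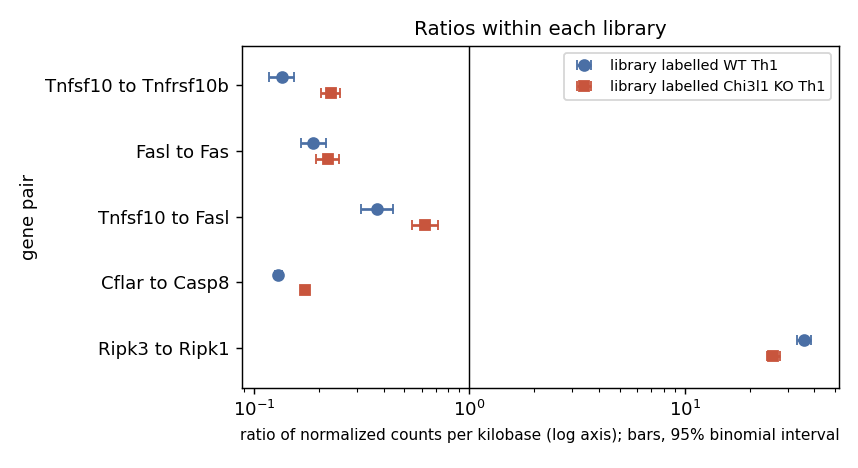
Ratio of normalized counts per kilobase for 5 pairs of genes within each library, on a log axis, with 95% exact binomial intervals. The intervals of both libraries are apart for Tnfsf10 to Tnfrsf10b, Tnfsf10 to Fasl, Cflar to Casp8 and Ripk3 to Ripk1, and overlap for Fasl to Fas.

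The other genes of death receptor signalling were mostly close to equal between the libraries. Among the genes listed as TRAIL decoy receptors, their relatives and Fas regulators, 10 of 11 had at least 30 reads in a library, and none was past 1.5-fold. They ranged from -0.33 for Dedd2, a death effector domain protein, and -0.27 for Tnfrsf26 to 0.10 for Tnfrsf22, a TRAIL decoy receptor, and 0.12 for Faf1, a Fas-associated factor. These were -0.11, -0.45, 0.04 and 0.01 with the GC trend removed. The median was -0.0090 as deposited. Tnfrsf22, Tnfrsf23 and Tnfrsf26 are related genes, and because reads with several alignments were counted, their values are uncertain. Osteoprotegerin (Tnfrsf11b), a soluble TRAIL decoy, had 1 read in each library.

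In the arm of the TNF receptors, 16 of 16 genes had at least 30 reads, with 6 higher and 10 lower in the library labelled KO as deposited, 7 and 9 with the GC trend removed, and 10 and 6 when scaled to total reads. The 2 genes past 1.5-fold as deposited encode the inhibitors of apoptosis cIAP1 and cIAP2, which ubiquitinate RIPK1. Birc2 had 1157 reads in the library labelled WT and 2175 in the library labelled KO (log2 fold change 0.91, interval 0.80 to 1.01). Birc3 had 1882 and 2967 (0.65, interval 0.57 to 0.74), and with the GC trend removed they were at 0.72 and 0.53, the latter below 1.5-fold. The lowest were Tnfrsf1a, the TNF receptor with a death domain, at -0.52 and the adaptor gene Traf5 at -0.38. Once the GC trend was removed Tnfrsf1a was at -0.31, and Traf5, at -0.60, was then the lowest and past 1.5-fold. Of all genes with at least 30 reads in a library, 8.57% were higher and 10.6% lower by at least 1.5-fold. By any amount 49.1% of these were higher as deposited. Scaling to total reads moved the median of all genes above 0 in both libraries to 0.15.

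Among other death receptors and ligands, 7 of 9 had at least 30 reads and 6 of these were lower in the library labelled KO (median -0.24), or 5 of 7 both with the GC trend removed and when scaled to total reads. Ltbr, the lymphotoxin beta receptor, had 53 and 12 reads (log2 fold change -2.06, interval -3.19 to -1.22, and -1.63 with the GC trend removed) and was the only gene of the pathway lists past 2-fold with that many reads. Ltb, one chain of its ligand, was far better covered, with 13997 and 9047 reads, and had a log2 fold change of -0.63, which was -0.18 with the GC trend removed. Tnfrsf21 was at -0.59, from 118 and 78 reads, or -0.50 with the trend removed. The highest was Tnfrsf12a at 0.07, followed by the death receptor gene Tnfrsf25 at -0.10, and these were at 0.37 and 0.28 with the GC trend removed.

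Of the caspases besides Casp8, 7 of 9 had at least 30 reads, and Casp12 and Casp14 were at 0 in both libraries. Casp6, an executioner caspase, was the only one past 1.5-fold as deposited, with 722 reads in the library labelled WT and 1238 in the library labelled KO (log2 fold change 0.77, interval 0.64 to 0.91). It stayed at 0.71 with the GC trend removed. Of the 7 caspases 5 were higher as deposited and 2 with the GC trend removed. The lowest were the inflammatory caspase gene Casp1 at -0.43, from 42 and 31 reads, and Casp2 at -0.16, and Casp4 was at 0.21. The interval of Casp1, from -1.16 to 0.26, includes 0. After removal of the GC trend Casp1 was at -0.65, which is past 1.5-fold, Casp2 at -0.24 and Casp4 at -0.02. Of the 5 necroptosis partners none was past 1.5-fold, from -0.42 for Ticam1 and -0.32 for Zbp1, both adaptors that can engage RIPK3, to 0.05 for Ppm1b and 0.29 for Pgam5. Mlkl, the executor of necroptosis, was at -0.12. The values without the GC trend were -0.20 for Ticam1, -0.28 for Zbp1, -0.10 for Ppm1b, 0.27 for Pgam5 and -0.19 for Mlkl. Of 8 genes of the mitochondrial link and of caspase inhibition, 7 were higher in the library labelled KO as deposited, 5 with the GC trend removed and 8 when scaled to total reads. None was past 1.5-fold, from -0.10 for Birc5 and 0.05 for Apaf1 to 0.27 for Cycs and 0.33 for Diablo. Birc5 was at -0.19, Apaf1 at -0.07, Cycs at 0.05 and Diablo at 0.41 with the GC trend removed. Of all genes with at least 30 reads in a library, 49.1% were higher as deposited, and their median with the GC trend removed was 0.0040. Scaling to total reads moved the median of all genes above 0 in both libraries to 0.15.

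**Figure D5:**
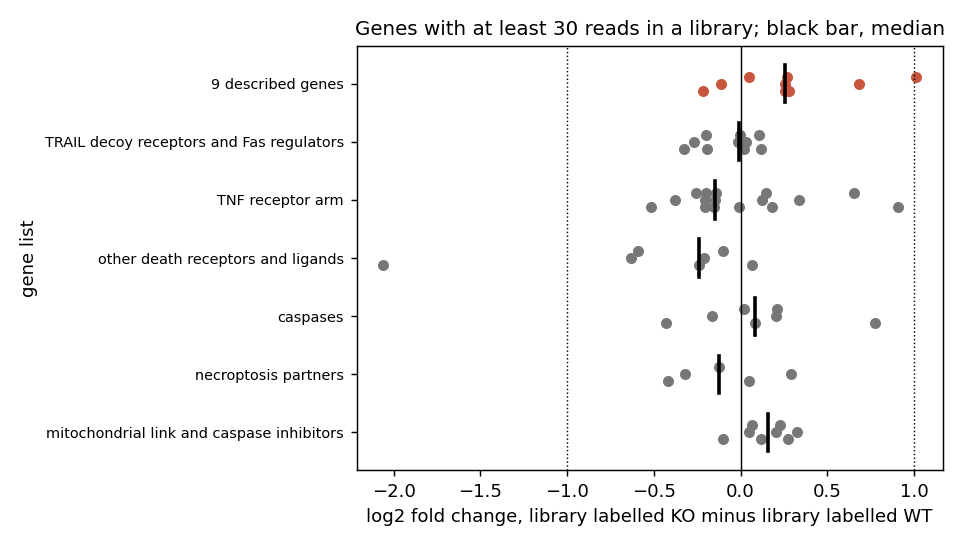
Log2 fold change, library labelled KO minus library labelled WT, of every gene with at least 30 reads in a library in the 9 genes (red) and in 6 lists of related genes (grey), with the median of each list as a black bar and dotted lines at 2-fold. Apart from Tnfsf10 at 1.01 and Ltbr at -2.06, all points lie between the dotted lines.

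Death ligands and their receptors are also made by other blood cells, and in a bulk culture more cells of a type cannot be told apart from more RNA per cell. The cultures were started from naïve CD4 T cells purified by a magnetic kit or by sorting, steps that remove most cells of other types, and which of them served for these libraries was not given in the sources used here. B cell markers were higher in the library labelled KO for 5 of 5 genes, with a summed normalized count of 939 in the library labelled WT and 1731 in the library labelled KO. Of the dendritic cell markers, 3 of 6 were higher and 1 was lower, with sums of 73.6 and 122, and Siglech and Clec9a at 0 in both. Of the CD8 and NK markers, 4 of 6 were higher and 2 lower, with sums of 924 and 1024, and the NK receptor gene Ncr1 had 0 and 6 reads. Macrophage and monocyte markers were lower for 4 of 7 and higher for 2, with sums of 687 and 551 and the defining Adgre1 at 0 in both. Of the 5 neutrophil markers listed, 4 were lower and none higher, with sums of 58.0 and 4.79. Of the markers of other T helper cells, 4 of 6 were higher and 1 lower, with sums of 5698 and 5762 and Il17a at 0 in both. These near-equal sums hold opposite differences. Gata3 had 3716 and 2392 reads (log2 fold change -0.64) and Foxp3 had 2023 and 3348 (0.72). The part of cells of all these kinds in the differences of Tnfsf10, Cflar, Ltbr and the other genes described was not tested.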

How the data were processed

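Poly(A) RNA of WT and Chi3l1 KO Th1 cells (1 library each) was sequenced from both ends. Per the submitters' processing notes, the tools were TopHat and edgeR with mm10. Unique and multiple alignments were counted, and the libraries were normalized globally. The annotation and use of strand were not given in the sources used here. Each deposited number was taken to be the log2 of 1 plus a normalized count, a unit inferred from the numbers: with this undone, 99.5% and 99.8% of values between 0 and 400 lay within 0.15 reads of whole multiples of a step (0.9700 in the library labelled WT, 0.9684 in the library labelled KO), by which reads were rebuilt.

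Deposited values of the library labelled WT were subtracted from those of the library labelled KO to give log2 fold changes. Intervals (95%) were exact binomial for a fold, exact conditional for the change of a ratio and Poisson for a level. They take each rebuilt read as independent. The libraries were amplified and reads with several alignments were counted, so the intervals may be too narrow. Positions, lengths and GC content came from GENCODE M21 (GRCm38, the assembly of mm10), which held 96.2% of symbols with at least 30 reads in a library. For the GC trend, well expressed genes were split by GC content into 20 bins, and the bins' median log2 fold change was interpolated.

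The members, gene lists and alternatives were chosen with earlier results of these data known. The rule named all members, Chil1, the 2 highest and 2 lowest genes of each pathway list with at least 30 reads in a library and any past 2-fold, and the 3 genes nearest to each ligand. Other listed genes named, and Serpinb6a, were chosen after their values were seen. Functions were tested on simulated data. Computation used scipy 1.17.1, pandas 2.3.3 and numpy 2.4.6 in Python 3.11.15, and plots matplotlib 3.10.9. Listed genes outside the rule were mostly counted without being named, and a few are not reported here. The naïve samples were not analysed here.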

Additional observations from a re-analysis of the deposited data

How the results depend on the processing

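With 1 library per genotype no replicate could be left out, and no paired analysis was possible because each genotype has a single library. Median-ratio scaling and a pseudocount of 0.1 kept every member's log2 fold change within its interval of read sampling and the count of members past 2-fold at 1. The log2 fold changes of Tnfsf10 and Fasl and the difference between them stayed within their intervals under every alternative run for them, but that of Tnfsf10 was 0.97 under quantile normalization and 0.82 with the GC trend removed, so that 0 members were past 2-fold. At 1.5-fold the count was 2. Quantile normalization gave 0.39 for Casp8 and -0.14 for Ripk3. With scaling to Actb the log2 fold changes were 0.16 for Fas, 0.37 for Tnfrsf10b, 0.39 for Casp8, 0.80 for Cflar, -0.099 for Ripk3 and 0.00089 for Fadd. With reads per total reads they were 0.22 for Fas, 0.43 for Tnfrsf10b, 0.053 for Fadd, 0.45 for Casp8, 0.85 for Cflar, 0.42 for Ripk1 and -0.047 for Ripk3. These scalings moved the median of all genes above 0 in both libraries from -0.0030 to 0.097 and 0.15, and 8 of 9 members were then higher. With the GC trend removed Fas was at -0.14, Casp8 at 0.15, Cflar at 0.52, Ripk3 at -0.079 and the change of Ripk3 to Ripk1 at -0.20. Asking for a log2 value of 8 in either library left 80 of 1147 genes higher and 116 of 1418 lower by at least 2-fold, since low genes are then not counted. Per kilobase of all exons, the ratios in the libraries labelled WT and KO were 0.219 and 0.370 for Tnfsf10 to Tnfrsf10b, 0.240 and 0.280 for Fasl to Fas, 0.0755 and 0.0999 for Cflar to Casp8, and 39.5 and 28.5 for Ripk3 to Ripk1. At 3 reads the deposited value would be 1.97, far below every member.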

Other observations

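The genes whose deposited log2 values were nearest to those of each ligand were taken over the 2 libraries, by Euclidean distance, as a description. Nearest to Tnfsf10 were Slc25a14 (distance 0.09), Ufm1 (0.12) and Pithd1 (0.14), with log2 fold changes of 0.89, 0.84 and 0.81. Nearest to Fasl were Zbtb41 (0.02), Zfp747 (0.03) and H2-M3 (0.03), with log2 fold changes of 0.26, 0.23 and 0.31. With 2 libraries such a likeness holds no more than a level and a difference.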
